A study of Mus musculus with 12 samples.

Results

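The motor and efferent genes of the outer hair cell were measured by RNA-seq of the P6 mouse cochlea. The 5 genes are Slc26a5, Chrna9, Chrna10, Kcnn2 and Kcnma1, taken from the table by symbol, and they are 5 of the 28686 gene symbols in the table. All 5 passed the filter on low counts, a mean of 5 or more reads over the libraries, as did 18459 genes in all. The genotypes were 6 Sox2CreER/+ Jag1fl/fl mutants and 6 Sox2+/+ littermate controls, with tamoxifen given to every pup on P0 and P1 and tissue taken at P6. Controls carried the floxed allele on at least 1 copy of Jag1, since 1 parent was Jag1fl/fl, but no CreER, so that the genotypes also differed at Sox2. CreER was made from the Sox2 locus, which is active in supporting cells, so that Jag1 was deleted beside the hair cells rather than in them. The strain is labelled C57BL/6;129SV, whereas the study's methods place the CreER line on C57bl6/J and the floxed line on FVB/n. Which litter a mouse came from is not given in the sources used here. JAG1 is a Notch ligand, and the comparison asks whether hair cell genes of the efferent and motor pathways differed after its loss from their neighbours.

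Outer hair cells amplify sound by changing length with their membrane voltage, and prestin, the product of Slc26a5, is the membrane protein that does so. Efferent fibres from the brainstem damp this amplifier by releasing acetylcholine onto a receptor built of the subunits encoded by Chrna9 and Chrna10. Calcium entering through that receptor opens SK2 potassium channels, encoded by Kcnn2, which hyperpolarise the cell, and BK potassium channels, encoded by Kcnma1, are opened by calcium together with voltage. Before hearing begins inner hair cells also receive efferent synapses and express this receptor, so that in whole cochlear tissue the efferent genes are not specific to outer hair cells.

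Between 28498549 and 36134983 reads were counted on genes per library. Jag1 was 102 ± 14.7 CPM (reads per 1000000 counted on tested genes, scaled by TMM; SD, n = 6) in controls but 36.4 ± 6.56 CPM in mutants, with no overlap (log2 fold change -1.48 ± 0.13 SE, edgeR adjusted p = 0.0002575). Sox2, the locus of CreER, was 33.9 ± 6.49 CPM in controls and 24.8 ± 3.6 CPM in mutants (edgeR adjusted p = 0.143). All 15 hair cell markers were tested, among them Otof, which encodes otoferlin of the inner hair cell synapse, at 69.8 ± 4.98 CPM in controls. The tissue held other cell types as well, since the 7 markers of the stria vascularis, the epithelium that secretes endolymph, were all tested and Dct, a melanocyte enzyme, stood at 845 ± 108 CPM in controls. Across all genes 35 were called, 20 higher and 15 lower in mutants. In bulk tissue fewer cells of a type and less RNA per cell cannot be told apart.

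No difference between genotypes was detected in any of the 5 genes. With edgeR's quasi-likelihood test 0 of 5 passed an adjusted p of 0.05, where 0.19% of all tested genes did, and 0 of 5 had an unadjusted p under 0.05, where 10.6% of all tested genes did. DESeq2 called 0 of 5, where it called 3.37% of all genes, and limma-voom called 0 of 5, where it called 0.103%. The ranges of the 2 genotypes overlapped for each of the 5 genes, where the groups did not overlap for 0.997% of tested genes. The estimates lay between -0.17 for Slc26a5 and 0.14 for Kcnma1 on the log2 scale, beside a median of 0.003 over all tested genes. The width of the intervals differed widely, and it sets what each measurement could have shown.

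Slc26a5 (ENSMUSG00000029015.9) lies on the minus strand at chr5:21810655-21865604 (GRCm38, GENCODE M21). In controls its level ran from 7.46 CPM through a median of 14.2 to 17.6, and in mutants from 3.22 through 10.9 to 19.9 CPM. The mutants held both the lowest and the highest value of the 12 libraries, and 1 of 6 mutants lay above the control median. The mean of the controls was 12.9 ± 4.41 CPM and that of the mutants 11.4 ± 5.49 CPM (SD, 6 mice each). The log2 fold change was -0.17 ± 0.36 (SE), with a 95% interval of 0.519 to 1.53 on the fold scale and an edgeR adjusted p of 0.942. A permutation of the genotypes over the exact 924 divisions of the mice gave p = 0.578, where the smallest possible is 0.002165. The lowest level was that of mutant 1, and without it the estimate was 0.03, on the other side of 0. With this spread between mice, changes of any size within the 95% interval were compatible with the data.

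Chrna9 encodes the subunit of the efferent receptor that can form a channel by itself. It lies on the plus strand at chr5:65934921-65977326, on the same chromosome as Slc26a5. Controls ran from 2.83 through a median of 3.95 to 5.57 CPM and mutants from 3.15 through 4.34 to 5.42 CPM. These ranges almost coincide, and 4 of 6 mutants lay above the control median. The log2 fold change was 0.10 ± 0.17 (SE), the 95% interval 0.835 to 1.38 on the fold scale and the edgeR adjusted p 0.922. The exact permutation test gave p = 0.563. Chrna9 had the fewest reads of the 5 genes, 98 to 192 per library, so that counting error alone amounts to 8.48% of its level.

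Chrna10 encodes the partner subunit, which needs Chrna9 to form a channel. It lies on the minus strand at chr7:102111266-102116828. Its level was the steadiest of the 5 genes, from 9.48 through a median of 10.6 to 11.9 CPM in controls and from 8.95 through 10.3 to 12.3 CPM in mutants. The highest of the 12 libraries exceeded the lowest 1.38-fold. The log2 fold change was -0.02 ± 0.10 (SE), the 95% interval 0.855 to 1.135 on the fold scale and the edgeR adjusted p 0.977 (exact permutation p = 0.771). The estimate turned positive without control 5 (0.017), without mutant 2 (0.017) or without mutant 3 (0.010). Of the exon length of Chrna10, 39% is shared with Art1 on the opposite strand, and whether the counting used strand is not given in the sources used here. Art1, an ADP-ribosyltransferase gene, received only 7 to 21 reads per library, beside 266 to 421 for Chrna10.

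Kcnn2, which encodes the SK2 channel, lies on the plus strand at chr18:45268860-45686024. Controls ran from 7.12 through a median of 8.09 to 10.9 CPM and mutants from 7.41 through 7.97 to 10.7 CPM. Most libraries sat near 8 CPM, with controls 2 and 4 and mutant 2 above 10 CPM. The log2 fold change was -0.06 ± 0.13 (SE), with a 95% interval of 0.791 to 1.16 on the fold scale and an edgeR adjusted p of 0.937 (exact permutation p = 0.745). Without control 4 the estimate was 0.008. A330093E20Rik and AC121957.1 on the opposite strand share 3.8% and 4.33% of its exon length.

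Kcnma1, which encodes the pore-forming subunit of the BK channel, is the longest of the 5, at chr14:23289431-24014491 on the minus strand, with 16976 nucleotides of annotated exon, of which 4930519K11Rik on the opposite strand shares 5.98%. Controls ran from 6.82 through a median of 10.8 to 14.6 CPM and mutants from 8.13 through 10.6 to 15.2 CPM. The medians of the 2 genotypes were almost equal, and 3 of 6 mutants lay above the control median. The log2 fold change was 0.14 ± 0.20 (SE), the 95% interval 0.819 to 1.49 on the fold scale and the edgeR adjusted p 0.902 (exact permutation p = 0.528).

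**Figure D1:**
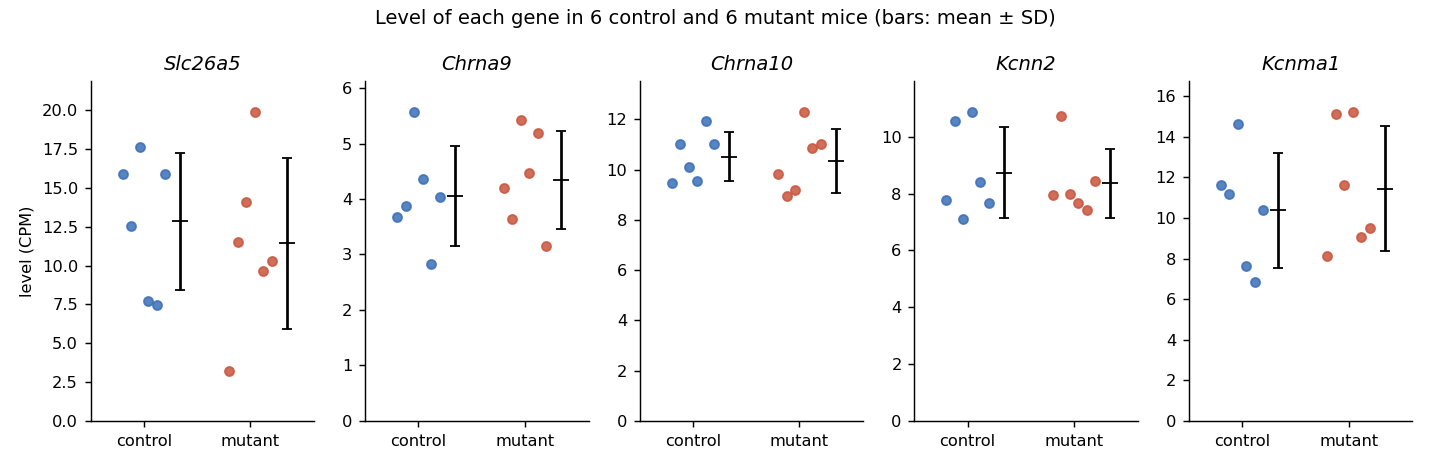
Level in CPM (vertical axes, each starting at 0) of the 5 genes in each of 6 control (blue) and 6 mutant (red) mice, with mean and SD as black bars. The genotypes overlap in every panel, and Slc26a5 ranges from 3.22 to 19.9 CPM among mutants whereas Chrna10 stays between 8.95 and 12.3 CPM.

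The levels of the 5 genes were compared with each other per length, as CPM per kilobase of annotated exon. In controls Slc26a5 stood at 4.19 ± 1.43 and Chrna10 at 4.00 ± 0.371 (SD, n = 6). Chrna9 followed at 1.34 ± 0.298, Kcnn2 at 1.17 ± 0.213 and Kcnma1 at 0.611 ± 0.167 CPM per kilobase. The first pair in this order differed by less than its spread, and so did Chrna9 and Kcnn2. For Chrna10 39% of this length is shared with Art1, and how reads there were counted is not known. When levels were divided by the longest transcript instead, Kcnn2 at 2.37 ± 0.433 came above Chrna9 at 2.20 ± 0.489, so that their order rests on the choice of length. By either length the receptor subunits were unequal at the transcript level, with Chrna10 above Chrna9.

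The 5 genes varied between mice to very different degrees. The biological coefficient of variation, which is the spread left by edgeR once counting error is removed, was 42.6% for Slc26a5, above 94.3% of all tested genes. It was 24.9% for Kcnma1, 21.6% for Chrna9, 16.9% for Kcnn2 and 13.3% for Chrna10, beside a median of 15.0% over all tested genes. Counting error was 8.48% or less for each of the 5, and the counts of Slc26a5 ranged from 105 to 681 reads, a 6.18-fold range in CPM.

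Within genotypes Slc26a5 and Kcnma1 were high and low in the same mice. Over the 12 libraries, after each genotype's mean was subtracted, Pearson's r between them was 0.81 (Spearman's rho 0.90), and without mutants 1 and 4, the farthest from the median of Slc26a5, r was 0.82. With the other members Slc26a5 had r from -0.25 (Kcnn2) to 0.30 (Chrna9) without any correction of the libraries. The points share the properties of the libraries, and a trend with transcript length moved with both genes. In each library the deviation of a gene from its mean over the 12 libraries can be correlated with transcript length across genes. Genes are not independent replicates, and this rho ran from -0.40 to 0.27. The 3 libraries with the most negative rho, mutant 1 (-0.40), control 5 (-0.36) and control 4 (-0.24), were the 3 with the least Slc26a5, at 3.22, 7.46 and 7.73 CPM. Mutant 4, with the highest rho of 0.27, had the most Slc26a5. The longest Slc26a5 transcript, at 2962 nucleotides, is close to the median of 3107 over tested genes, whereas that of Kcnma1 has 12094.

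Correcting each library for GC content and transcript length, an adjustment chosen after the data were seen, acted differently on the 2 genes. The fold range of Kcnma1 over the 12 libraries, on the log2(CPM + 0.1) scale, went from 2.21 to 1.72, while that of Slc26a5 went from 6.02 to 5.82. The r between the 2 genes was 0.51 after the correction, and it no longer stood above the other pairs. Slc26a5 then had r of 0.49 with Chrna9, 0.48 with Chrna10 and -0.18 with Kcnn2, and Kcnma1 had 0.52 with Chrna9. Neither gene's comparison of genotypes changed its side of the threshold, with log2 fold changes of -0.18 for Slc26a5 and 0.10 for Kcnma1. What sets the remaining spread of Slc26a5 was not tested.

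**Figure D2:**
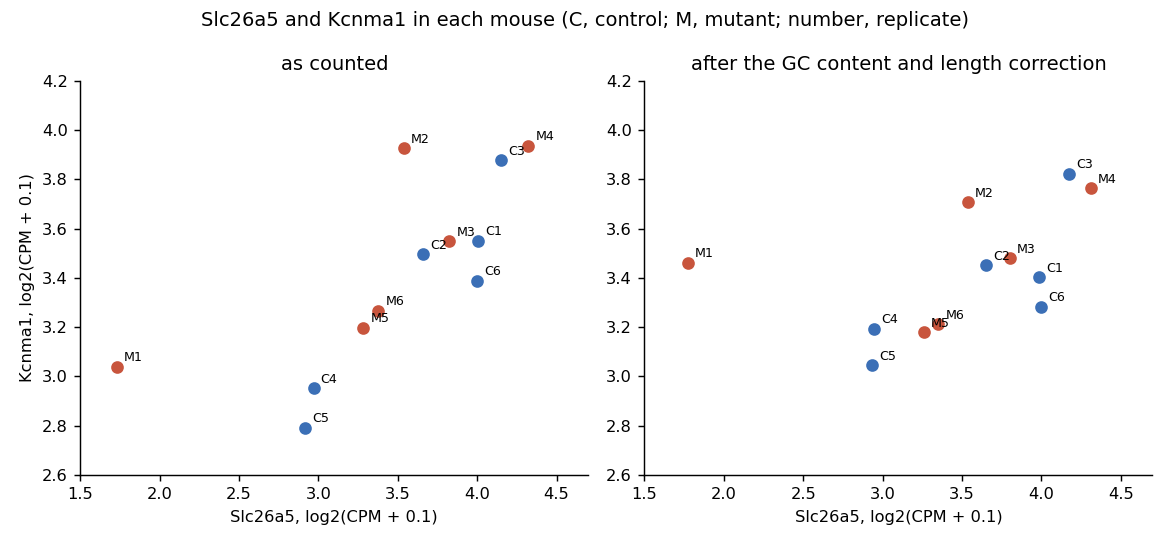
Slc26a5 (horizontal) against Kcnma1 (vertical), both as log2(CPM + 0.1), in each of the 12 mice before (left) and after (right) correction for GC content and transcript length; C is control and M mutant, with the replicate number. The vertical spread narrows after correction, from a 2.21-fold to a 1.72-fold range, while mutant 1 stays far to the left.

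The start regions of these 2 genes are shown because their transcripts varied together before the correction. Whether the start regions have any part in that was not tested. RefSeq windows of 250 bases before and 50 after the start (GRCm38.p6) were found for 4 of the 5 genes, all but Kcnn2. They are printed on the coding strand, with CG dinucleotides in capitals.
Slc26a5, chr5:21865555-21865854, minus strand: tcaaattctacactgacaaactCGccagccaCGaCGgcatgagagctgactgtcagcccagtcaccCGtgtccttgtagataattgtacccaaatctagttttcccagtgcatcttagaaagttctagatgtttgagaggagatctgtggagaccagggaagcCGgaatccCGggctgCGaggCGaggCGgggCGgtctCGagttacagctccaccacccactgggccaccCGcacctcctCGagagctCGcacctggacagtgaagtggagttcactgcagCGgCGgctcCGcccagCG
Kcnma1, chr14:24004156-24004455, minus strand: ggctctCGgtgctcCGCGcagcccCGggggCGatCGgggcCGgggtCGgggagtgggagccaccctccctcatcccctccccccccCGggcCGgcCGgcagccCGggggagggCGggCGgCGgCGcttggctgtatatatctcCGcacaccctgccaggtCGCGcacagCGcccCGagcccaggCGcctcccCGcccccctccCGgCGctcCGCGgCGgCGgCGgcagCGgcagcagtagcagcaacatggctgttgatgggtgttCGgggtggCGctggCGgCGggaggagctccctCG
The Kcnma1 window had 78% G and C and 36 CG dinucleotides, and that of Slc26a5 58% and 18. Chrna9 had 52% and 6 and Chrna10 49.3% and 1, beside medians of 52.7% and 7 over all 32851 windows. Both windows shown held more CG dinucleotides than the median. The TATA box sequence TATAAA, on either strand, was in none of the 4 windows and in 13.6% of all windows, and AGGTCA, the half-site of nuclear receptors, was in none of the 4 and in 16.3% of all. The Kcnma1 window lies inside the GENCODE gene, whose outermost start is farther upstream.

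Each gene was next set against a score of hair cell content, the mean log2(CPM + 0.1) of the 15 hair cell markers, which ran from 3.52 to 3.82 in controls and from 3.29 to 3.93 in mutants. 10 relations were computed, 5 genes against this score and against a neuron score, each within genotypes over the 12 libraries, and p-values come from 100000 permutations. Slc26a5 followed the hair cell score with r = 0.83 (permutation p = 0.0049, adjusted p = 0.049 over the 10 relations). Spearman's rho was 0.59 (permutation p = 0.0645, adjusted p = 0.300). Without mutants 1 and 4, the lowest and highest in Slc26a5, r was 0.51. With the median of the markers in place of their mean it was 0.38 (adjusted p = 0.401), and after the GC content and length correction 0.78 (adjusted p = 0.0491). Within controls r was 0.87 and within mutants 0.83. Mutant 1 was lowest in both measures, although another outer hair cell gene, Ocm, was highest of the mutants there, at 74.15 CPM. It also had the most negative rho with transcript length. Within genotypes that rho had r of 0.90 with Slc26a5 and 0.67 with the hair cell score. Whether the relation of Slc26a5 with the score reflects hair cell content or this trend of the libraries was not tested. For the other four genes no relation with the hair cell score passed, with r of 0.55 for Chrna10, 0.56 for Kcnma1, 0.18 for Chrna9 and -0.44 for Kcnn2 (adjusted p from 0.322 to 0.663). After the GC content and length correction Chrna10 had r of 0.78 and passed (adjusted p = 0.0491), and Kcnma1 had 0.19. The corrected Spearman's rho of Chrna10 was 0.69 (permutation p = 0.0338, adjusted p = 0.195). Its corrected r was 0.55 without mutants 1 and 4, 0.39 within controls and 0.91 within mutants. Without the correction Kcnn2 had a Spearman's rho of -0.68 (permutation p = 0.0132, adjusted p = 0.132). Its r was -0.77 without mutants 1 and 4, -0.83 within controls and -0.29 within mutants. No relation with the neuron score passed either, with adjusted p from 0.322 to 0.843.

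Expressed relative to the hair cell score, the genes again showed no detectable difference. The differences, mutant minus control on the log2 scale, were -0.20 for Slc26a5 (exact permutation p = 0.628), 0.18 for Chrna9 (p = 0.359), 0.05 for Chrna10 (p = 0.578), 0.02 for Kcnn2 (p = 0.926) and 0.22 for Kcnma1 (p = 0.288).

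The genes whose levels were most like each member, among 14823 with a mean of at least 1 CPM, were named by Pearson's r over the 12 libraries within genotypes. For Slc26a5 they were Sipa1l3 (0.99), Gpam (0.98) and Osbp (0.98), and 1245 genes, or 8.40%, exceeded 0.8. After the correction above 517 genes exceeded it. For Kcnma1 they were Hivep2 (0.97), Map3k13 (0.96) and Htt (0.96), with 433 genes above 0.8 and 28 after the correction. Chrna10 was most like B230217O12Rik (0.89), Espnl (0.87), which encodes a stereociliary protein, and Tbx3 (0.84). Chrna9 was most like Armc9 (0.89), Zfp689 (0.88) and Ccdc129 (0.86), and Kcnn2 was most like Layn (0.90), St8sia1 (0.84) and Tsc22d1 (0.84). Before the correction 11 genes exceeded 0.8 for Chrna9, 10 for Chrna10 and 6 for Kcnn2, and after it 35, 22 and 14 did. After the correction the r of Armc9 with Chrna9 was 0.43, and those of the other two were 0.82 (Zfp689) and 0.88 (Ccdc129).

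Of 12 other outer hair cell genes listed 11 were tested, and the median log2 fold change was -0.002. None was called by edgeR or limma-voom, DESeq2 called 1, and 1 had an unadjusted p under 0.05. For this list and those below, the shares over all tested genes were 10.6% at an unadjusted p under 0.05 and 3.37% by DESeq2. Ocm, which encodes the calcium buffer oncomodulin, ran from 45.7 to 87.7 CPM in controls and from 25.9 to 74.2 CPM in mutants (log2 fold change -0.40 ± 0.25 SE, edgeR adjusted p = 0.682). Sri, the gene of the calcium-binding protein sorcin, was 83.2 ± 5.78 CPM in controls beside 83.5 ± 3.50 CPM in mutants (SD, n = 6). Strc, which encodes stereocilin, gave -0.27 ± 0.16 on the log2 scale (edgeR adjusted p = 0.643). Dnm3, a dynamin gene, had the smallest p of the list, at 10.4 ± 1.45 CPM in controls but 17.2 ± 6.90 CPM in mutants (log2 fold change 0.72 ± 0.21, edgeR adjusted p = 0.145, DESeq2 adjusted p = 0.0231). Adjusted for nerve content, that is with a neuron score and a Schwann cell score as further terms of the fit, its log2 fold change was 0.15 ± 0.17. Nerve content here means the RNA of these markers, not a count of nerve cells. These scores themselves differed with genotype, the Schwann cell score running from 4.475 to 6.216 in controls and from 6.068 to 7.974 in mutants. Here and below, this fit therefore cannot fully separate nerve content from other differences between genotypes.

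**Figure D3:**
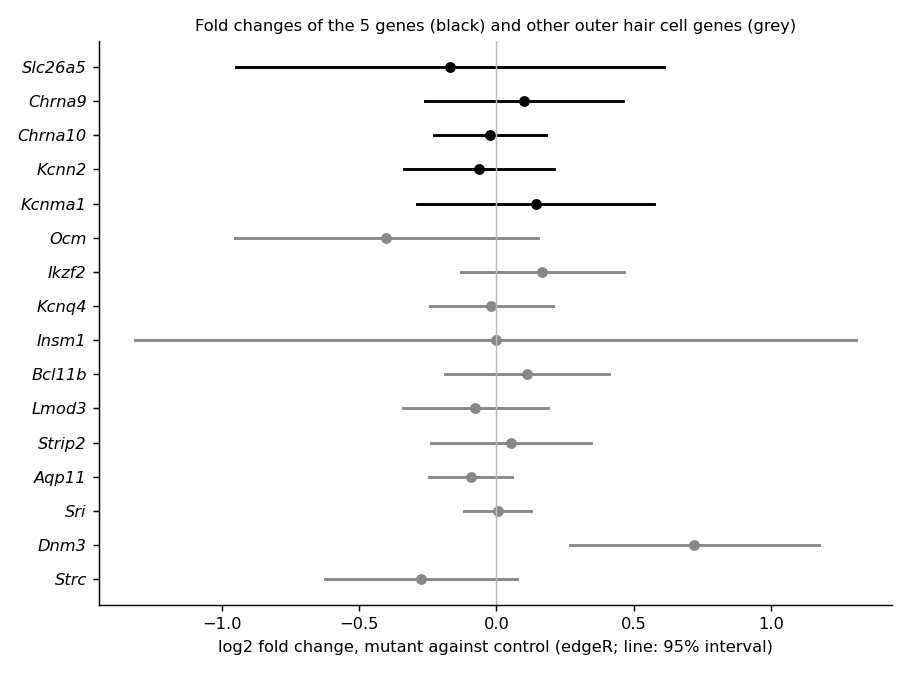
Log2 fold change of mutants against controls (horizontal, edgeR, with 95% intervals as lines) for the 5 genes in black and 11 other outer hair cell genes in grey. The intervals of all 5 genes include 0, and that of Slc26a5 is the widest of them at -0.95 to 0.61.

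Of the remaining hair cell genes, 0 of 15 hair cell markers were called by edgeR, with 2 lower at an unadjusted p under 0.05 and a median log2 fold change of -0.02. These 2 were Ush1c, which encodes harmonin of the stereocilia (-0.37 ± 0.09 SE, edgeR adjusted p = 0.0903, DESeq2 adjusted p = 0.00603), and Rbm24, an RNA-binding protein gene (-0.42 ± 0.14, edgeR adjusted p = 0.219). Of 7 inner hair cell genes 6 were tested and none was called by edgeR, with 3 higher at an unadjusted p under 0.05 and 2 by DESeq2. Those 2 were Calb2, a calcium buffer gene that neurons also express (23.3 ± 4.11 CPM in controls and 66.7 ± 45.2 CPM in mutants), and Shtn1 (31.5 ± 3.70 and 42.7 ± 8.97 CPM). Adjusted for nerve content their log2 fold changes went from 1.52 and 0.44 to 0.22 and -0.03. Tbx2, a transcription factor that marks inner hair cells, was 101 ± 11.1 CPM in controls and 96.9 ± 13.7 CPM in mutants.

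The relatives of prestin in the SLC26 family of anion transporters gave no calls. Of 10 genes 9 were tested, with none at an unadjusted p under 0.05, none called by edgeR, DESeq2 or limma-voom, and a median log2 fold change of -0.05. Slc26a4, which encodes pendrin, was 60.6 ± 7.62 CPM in controls and 51.7 ± 9.43 CPM in mutants (edgeR adjusted p = 0.550). Slc26a2, a sulfate transporter gene, was 49.1 ± 5.16 and 46.2 ± 6.43 CPM (edgeR adjusted p = 0.866).

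Of 14 other nicotinic receptor subunits 11 were tested, and edgeR called none, with 2 higher at an unadjusted p under 0.05 and 1 by DESeq2. Chrnb2, a neuronal subunit, was 3.16 ± 0.952 CPM in controls and 6.91 ± 3.53 CPM in mutants (log2 fold change 1.13 ± 0.33 SE, edgeR adjusted p = 0.147), and -0.28 when adjusted for nerve content. Chrna5 had 3 to 48 reads per library and did not overlap between genotypes (0.137 ± 0.0336 and 0.457 ± 0.466 CPM, edgeR adjusted p = 0.146). Adjusted for nerve content its log2 fold change was 1.35 ± 0.47. The genes of the list with the highest CPM, Chrnb1 and Chrna4, had log2 fold changes of -0.09 and 0.04.

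Partners of the efferent synapse included the receptor chaperones, the calcium stores and the enzymes of acetylcholine. Of 12 listed genes 11 were in the table and 10 were tested, with none called by edgeR, DESeq2 or limma-voom, 2 higher at an unadjusted p under 0.05 and a median log2 fold change of 0.10. Ache, which encodes acetylcholinesterase, was 3.30 ± 0.801 CPM in controls and 8.61 ± 9.52 CPM in mutants (edgeR adjusted p = 0.343). Ryr2, a calcium release channel gene, was 2.23 ± 0.478 and 4.18 ± 2.51 CPM (edgeR adjusted p = 0.260). Adjusted for nerve content their log2 fold changes went from 1.38 and 0.90 to -0.08 and 0.22. Chat, the enzyme that makes acetylcholine, had 0 or 1 read in each library, so that a difference in it could not be measured in these libraries.

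Of 14 relatives and auxiliary subunits of the SK and Slo channels 13 were tested, with none called by edgeR, 3 higher at an unadjusted p under 0.05 and 2 by DESeq2. Lrrc55, which encodes an auxiliary subunit of the BK channel, had the smallest p, at 17.2 ± 0.954 CPM in controls but 23.5 ± 3.62 CPM in mutants. Its ranges, 15.5 to 18.5 and 18.7 to 27.6 CPM, did not overlap (log2 fold change 0.45 ± 0.10 SE, edgeR adjusted p = 0.0753, DESeq2 adjusted p = 0.00272). After the correction for GC content and length its adjusted p was 0.0489, and when adjusted for nerve content its log2 fold change was 0.23 ± 0.14. Kcnt1, which encodes a sodium-activated potassium channel of neurons, was 1.16 ± 0.424 CPM in controls but 6.31 ± 5.47 CPM in mutants (log2 fold change 2.45 ± 0.61, edgeR adjusted p = 0.108), and its log2 fold change was -0.15 when adjusted. Kcnn3, the SK3 gene, was 10.4 ± 2.07 CPM in controls and 9.80 ± 1.78 CPM in mutants.

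Of 8 other hair cell potassium channel genes, all tested, edgeR called none, 4 were higher at an unadjusted p under 0.05 and 1 by DESeq2, and the median log2 fold change was 0.47. Kcnc1, a channel gene of fast-firing neurons, was 1.43 ± 1.08 CPM in controls and 7.70 ± 4.87 CPM in mutants (log2 fold change 2.43 ± 0.65 SE, edgeR adjusted p = 0.129). Kcnh2, which encodes the ERG channel, was 14.2 ± 2.24 and 21.4 ± 6.78 CPM (edgeR adjusted p = 0.191). Adjusted for nerve content the log2 fold changes of Kcnc1 and Kcnh2 were -0.48 and -0.20. Kcnj2, which encodes an inward rectifier, had a log2 fold change of -0.06.

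Markers of nerve tissue were compared beside these lists. Of 14 neuron markers 12 were higher at an unadjusted p under 0.05 and of 12 Schwann cell markers 11 were, with none called by edgeR or limma-voom and 10 of each by DESeq2. Their median log2 fold changes were 2.03 and 1.59. The neuron score ran from 2.29 to 3.92 in controls and from 3.17 to 6.25 in mutants, and the Schwann cell score from 4.47 to 6.22 and from 6.07 to 7.97. By staining, the paper's count of spiral ganglion neurons at P6 gave no significant difference between genotypes. Nefm, a neurofilament gene, was 18.4 ± 14.7 CPM in controls and 121 ± 111 CPM in mutants. Uchl1, the neuron marker of highest CPM, was 76.3 ± 5.96 and 97.2 ± 41.9 CPM (log2 fold change 0.35). Estimates were positive for 13 of 14 neuron markers, and the exception was Syt1 (-0.21). All 12 Schwann cell markers had positive estimates, the smallest being that of Sox10 (0.05). The 5 genes themselves had log2 fold changes, when adjusted for nerve content, of -0.17 for Slc26a5, 0.45 for Chrna9, 0.01 for Chrna10, -0.11 for Kcnn2 and -0.12 for Kcnma1, with unadjusted edgeR p from 0.101 to 0.947.

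**Figure D4:**
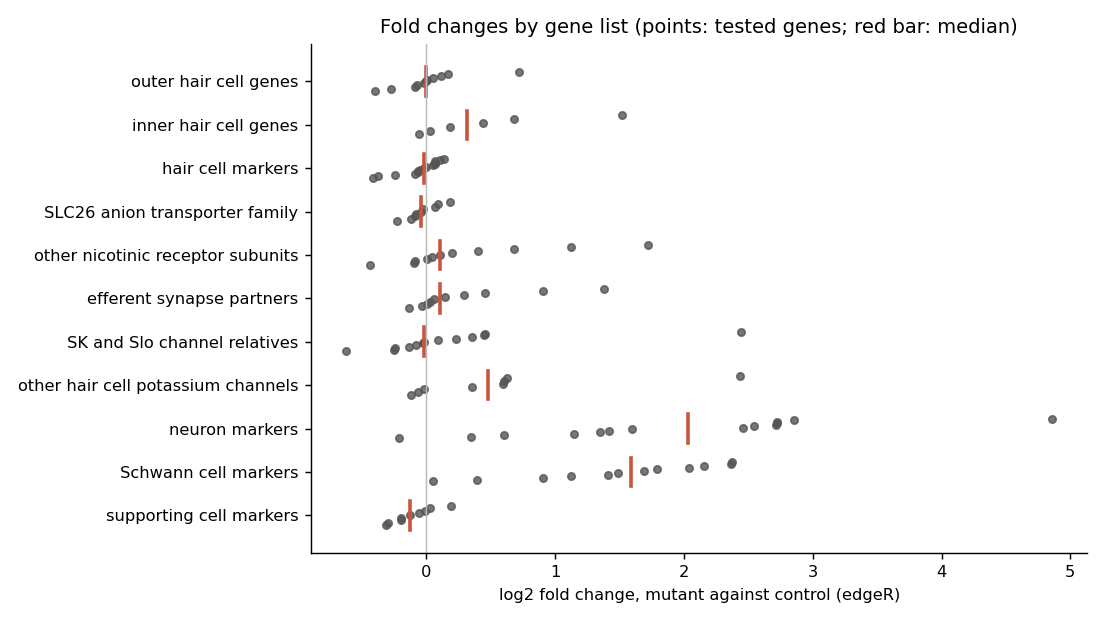
Log2 fold change of mutants against controls (horizontal, edgeR) for each tested gene (grey points) of 11 gene lists, with the list's median as a red bar. The medians of the neuron and Schwann cell markers are 2.03 and 1.59, and that of the outer hair cell genes is -0.002.

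The other cell types gave no calls by edgeR or limma-voom. Among supporting cell markers 2 of 9 were lower at an unadjusted p under 0.05, and among macrophage markers 4 of 6 (1 by DESeq2). Among smooth muscle markers 1 of 6 was lower and among red cell markers 1 of 5. Over all tested genes 10.6% had such a p in either direction. None of the 7 stria vascularis markers and none of the 3 skeletal muscle markers tested reached an unadjusted p under 0.05.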

How the data were processed

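Cochlear RNA of 6 mutants and 6 littermate controls was sequenced as single-end reads, and the authors deposited a table of raw counts, 1 row per gene symbol, made per the labels' processing notes with Trimmomatic 0.32, STAR 2.4.2a and HTSeq 0.9.1 on GRCm38.p4; the annotation and strand setting are not given in the sources used here. A second deposited table holds the authors' own DESeq2 1.10.1 comparison (fold changes and p-values) and was not used. The 5 genes and the gene lists were chosen with earlier results of these data known.

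Genes averaging 5 or more reads per library were tested between genotypes with edgeR 4.0.16 in R 4.3.3 (quasi-likelihood F-test, TMM, robust) on all 12 libraries, adjusted by Benjamini-Hochberg over 18459 genes and called under 0.05. CPM use TMM factors. Single genes were also compared by exact two-sided permutation of log2(CPM + 0.1). Alternatives were DESeq2 1.42.0, limma-voom (limma 3.58.1), RLE normalization, no filter, a mean count of 20, a replicate block, marker scores as covariates, leaving out each library and a GC content and transcript length correction (20 bins each, from GENCODE M21, in which 94.6% of symbols were found), the last added after seeing the data. The edgeR, DESeq2 and voom fits were tested on simulated data. Each sample was taken as 1 mouse of its genotype. Within genotypes, pairs of libraries had a chi-square of 13.7 to 72.1 per degree of freedom (30 pairs, where counting error gives about 1). None was therefore a second sequencing of another library, though separate samples of the same mouse would not show here. The spread between libraries rather than depth limits the precision.

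The genes named are the 5 members, Jag1, Sox2, the 3 genes most correlated with each member, and from each list the called genes, the 2 of highest mean CPM (not divided by length) and the 2 of smallest p; of the lists of other cell types only examples are given, and some genes that this rule names are not reported here. Art1 and Chat were named after their values were seen.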

Additional observations from a re-analysis of the deposited data

Results flagged for a closer look

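The level of Kcnn2 in mutant 2 was set apart, at 10.71 CPM where the other five mutants ran from 7.41 to 8.43 CPM. Controls 2 and 4 reached 10.6 and 10.9 CPM, so that the value lies within the range of the controls. The score of the supporting cell markers stood apart in mutant 1, at 7.455 on the log2 scale where the other five mutants ran from 7.773 to 7.849. Mutant 1 also had the lowest Slc26a5 and the lowest hair cell score of the 12 libraries. It had the most negative rho with transcript length as well (-0.40), whereas its Ocm, at 74.15 CPM, was the highest of the mutants. What sets mutant 1 apart was not tested. Of 22 sets of 6 values examined these 2, Kcnn2 and the supporting cell score, were set apart, and chance sets apart about 5% of such sets.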

How the results depend on the processing

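No alternative brought any of the 5 genes past the threshold; over 21 alternatives each, the lowest adjusted p was 0.867 for Slc26a5, 0.790 for Chrna9, 0.891 for Chrna10, 0.748 for Kcnn2 and 0.590 for Kcnma1. The log2 fold change changed sign for Slc26a5 with the hair cell score as a covariate (0.034), for Chrna10 with the neuron and Schwann cell scores (0.0101), the hair cell score (0.0102) or the GC content and length correction (0.0176), and for Kcnma1 with the neuron and Schwann cell scores (-0.12). Leaving out single libraries gave -0.40 to 0.025 for Slc26a5, 0.016 to 0.21 for Chrna9, -0.077 to 0.017 for Chrna10, -0.15 to 0.0077 for Kcnn2 and 0.045 to 0.27 for Kcnma1; sign changes came without mutant 1 (Slc26a5, 0.025), without control 5 (0.017), mutant 2 (0.017) or mutant 3 (0.0095) for Chrna10, and without control 4 (Kcnn2, 0.0077). The highest value for Chrna9, 0.45, came with the fit adjusted for the neuron and Schwann cell scores. The relation of Slc26a5 with the hair cell score was 0.38 with the median of the markers and 0.78 (adjusted p = 0.0491) after the GC content and length correction. That of Chrna10 was 0.78 (adjusted p = 0.0491) after the same correction. By Spearman's rho neither gene's relation passed after it (adjusted permutation p = 0.286 for Slc26a5 and 0.195 for Chrna10).

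The count of called genes, 35, was 619 with DESeq2, 19 with limma-voom, 57 with no filter, 1 when adjusted for the neuron and Schwann cell scores, 55 with the hair cell score, 77 after the GC content and length correction and 14 to 356 without single libraries; it moved by more than 1.5 times without control 2 (14), 3 (22), 4 (17), 5 (15) or 6 (14) and without mutant 1 (54), 2 (17), 4 (66), 5 (356) or 6 (15). With the replicate number as a block it was 131. Whether the replicate numbers pair the mice is not settled. Same-numbered mice had correlations of -0.19 to 0.28, and 4 of 12 libraries were closest to their own number. The block changed no call of the 5 genes. The causes of these changes were not tested.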
